A study of Homo sapiens with 24 samples.

Results

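ARL14, RGS20, ABCC9 and NTRK3 were 4 of the 62754 genes quantified in RKO-iCas9 cells, and they were selected on their counts: almost no reads in control cells given solvent and many after cycloheximide (CHX). The choice used the control libraries: the sgAAVS1 values below are therefore a description without a test, and tests were made in the sgERH libraries, which the selection rule does not name, and on fractions and introns. The genes were proposed with results of the whole series known, so that these tests are not fully independent of the choice. RKO is a human colon carcinoma cell line, here with a Cas9 that is switched on by doxycycline. All cells received doxycycline at 100 ng/mL for 5 days and then CHX at 25 µg/mL or DMSO, its solvent, for 4 h.

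The groups were sgERH with CHX, sgERH with DMSO, sgAAVS1 with CHX and sgAAVS1 with DMSO, each as a nuclear and a cytoplasmic fraction, with 3 polyA-selected libraries in each of the 8 groups. The sgERH guide targets ERH, a small conserved protein of RNA metabolism, and sgAAVS1 cuts a safe-harbour site as the control. Each library is bulk RNA of a guide-carrying culture, so that a change in the share of cells that express a gene and a change in RNA per cell cannot be told apart. Replicates are labelled as biological, and whether they came from separate days is not given in the sources used here.

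Library totals ranged from 27849345 to 79450331 estimated counts. ERH mRNA was lower in sgERH than in sgAAVS1 cells by a log2 difference of -1.03 ± 0.11 (SE) with DMSO and -0.72 ± 0.11 with CHX in the cytoplasm, and of -0.48 ± 0.16 and -0.12 ± 0.16 in the nucleus. An mRNA level does not measure how many cells carried a disrupted gene. Of 13 colon epithelial markers, 5 passed the filter on low counts in each fraction, among them CDX2 and KRT8. The other 8, which include KRT20 and VIL1, did not pass it. With CHX in sgERH cells, 0 of the 5 were called higher and 0 lower in the cytoplasm. In the nucleus KRT8 was called higher (1.52 ± 0.08, edgeR adjusted p = 9.89e-11) and CDX2 lower (-1.13 ± 0.19, adjusted p = 7.22e-05). CDX2 lost the call with length offsets (-0.96, adjusted p = 0.0674). The lists for other lineages were mostly below the filter on low counts: 3 of 12 neuronal, 2 of 8 leukocyte, 3 of 10 endothelial and fibroblast and 5 of 12 heart and muscle markers passed in the cytoplasm. Of the 13 that were tested in the cytoplasm of sgERH cells 2 were called higher and 1 lower with CHX, beside 7.15% and 1.88% of all genes. Of 13 in the nucleus 4 were called higher and 0 lower, beside 8.52% and 6.29% of all genes. The leukocyte integrin ITGAM rose by 2.71 ± 0.55 in the cytoplasm and by 3.84 ± 0.20 in the nucleus (adjusted p = 9.89e-11 in the nucleus). The collagen gene COL3A1 rose by 5.28 ± 1.59 and 7.39 ± 1.35. VWF and ACTA2 rose in the nucleus, by 2.91 ± 1.01 and 1.11 ± 0.44 (adjusted p = 0.0445 for ACTA2). The ACTA2 call was lost in several alternatives (0.75 to 1.26). No p is given for cytoplasmic ITGAM, at 0.126 ± 0.066 CPM with DMSO and 0.815 ± 0.088 CPM with CHX, near the filter on low counts. None is given for COL3A1 and VWF either, whose DMSO counts may lie under that filter. The calls of cytoplasmic ITGAM, COL3A1 and VWF are in the counts above. Those counts are therefore no evidence beyond the separate values. The neuronal tubulin TUBB3 was at 15.2 ± 0.4 CPM with CHX and 30.5 ± 2.1 CPM with DMSO in the cytoplasm, next to the fold threshold. The markers not called ran from -1.28 (VWF) to 1.16 (COL1A1) in the cytoplasm and from -1.06 (ACTA1) and -0.98 (TNNI3) to 0.99 (COL1A1) in the nucleus. Their part in the results below was not tested.

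The genes belong to unrelated pathways. ARL14 is an ARF-like small GTPase, a family of switches that recruit proteins to membranes. RGS20 is a regulator of G-protein signalling that speeds GTP hydrolysis by alpha subunits of the Gi class, Gz above all. ABCC9 encodes SUR2, the sulfonylurea receptor subunit of ATP-sensitive potassium channels of heart and vascular muscle. NTRK3 encodes TrkC, the receptor tyrosine kinase for neurotrophin-3 in neurons. CHX blocks the elongation step of translation; immediate early mRNAs are known to accumulate when protein synthesis is blocked, and so are mRNAs that are normally removed by nonsense-mediated decay (NMD), which needs translation.

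ARL14 was higher with CHX than with DMSO in every sgERH library of both fractions. ARL14 lies on chromosome 3 at 160677160 to 160678448 (GRCh38, plus strand) and its only annotated transcript, ARL14-201, has 1 exon. In the cytoplasm it had 453, 358 and 495 counts in sgERH cells with CHX, against 1, 1 and 6 with DMSO. In the nucleus it had 140, 136 and 142 counts with CHX, against 0, 5 and 2 with DMSO. As CPM, the count scaled to a common library size, cytoplasmic ARL14 was 7.24 ± 1.82 with CHX and 0.0506 ± 0.0539 CPM with DMSO (SD, n = 3 each), a log2 fold change of 7.10 ± 0.35 (SE, edgeR). The nuclear log2 fold change was 5.86 ± 0.46. No p is given, because ARL14 passed the filter on low counts only through its CHX libraries. With so few counts in DMSO the size of these folds rests on single libraries: without sgERH DMSO cytoplasm replicate 3 the cytoplasmic value was 8.43, and without sgERH DMSO nucleus replicate 2 the nuclear value was 6.91.

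RGS20 was also higher with CHX. The gene spans 53851795 to 53959303 on the plus strand of chromosome 8. Its cytoplasmic counts were 402, 340 and 398 in sgERH cells with CHX, against 15, 13 and 28 with DMSO. Its nuclear counts were 186, 364 and 276 with CHX, against 2, 8 and 2 with DMSO. No sgERH library with CHX overlapped one with DMSO. The log2 fold change was 4.14 ± 0.23 in the cytoplasm (adjusted p = 5.08e-10) and 6.07 ± 0.53 in the nucleus (6.96 without sgERH DMSO nucleus replicate 2), where no p is given for the same reason as for ARL14.

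ABCC9, on the minus strand of chromosome 12 at 21797389 to 21942543, was higher with CHX in both fractions. It had 425, 509 and 499 nuclear counts in sgERH cells with CHX, against 15, 23 and 10 with DMSO. In the cytoplasm it had 179, 92 and 204 counts with CHX, against 12, 10 and 7 with DMSO. The cytoplasmic CHX libraries were uneven, with replicate 2 the lowest, and did not overlap DMSO. The log2 fold change was 4.92 ± 0.28 in the nucleus and 3.83 ± 0.39 in the cytoplasm (5.00 with length offsets), again with no p, since 1 or more DMSO libraries of every group fell short of the filter.

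NTRK3 had the smallest fold change of the 4 in each fraction and the highest CPM in sgERH cells with DMSO. It lies on the minus strand of chromosome 15 at 87859751 to 88256791. Cytoplasmic counts were 531, 455 and 495 in sgERH cells with CHX, against 87, 60 and 99 with DMSO. Nuclear counts were 606, 637 and 741 with CHX, against 31, 70 and 86 with DMSO. The groups did not overlap, and the log2 fold change was 2.39 ± 0.15 in the cytoplasm (adjusted p = 2.52e-09) and 3.47 ± 0.24 in the nucleus (adjusted p = 2.99e-09). When the transcript lengths that salmon assigned were used as offsets, the nuclear value was 2.31 (adjusted p = 0.007).

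Among all 16130 genes tested in the cytoplasm of sgERH cells, 7.15% were called higher and 1.88% lower with CHX (9.03% in either direction), and among the 17330 tested in the nucleus 8.52% were called higher and 6.29% lower (14.8% in either direction). A call needed both an adjusted p no larger than 0.05 and a log2 fold change of 1 or more in size. The 4 genes were called in both fractions. Their calls are no evidence beyond the separate values: the filter asks for the equivalent of 10 counts in 3 libraries, which with DMSO alone only NTRK3 and cytoplasmic RGS20 met. The fit also shares its estimate of spread with the sgAAVS1 libraries. The plot of CPM by group shows all 24 libraries.

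**Figure D1:**
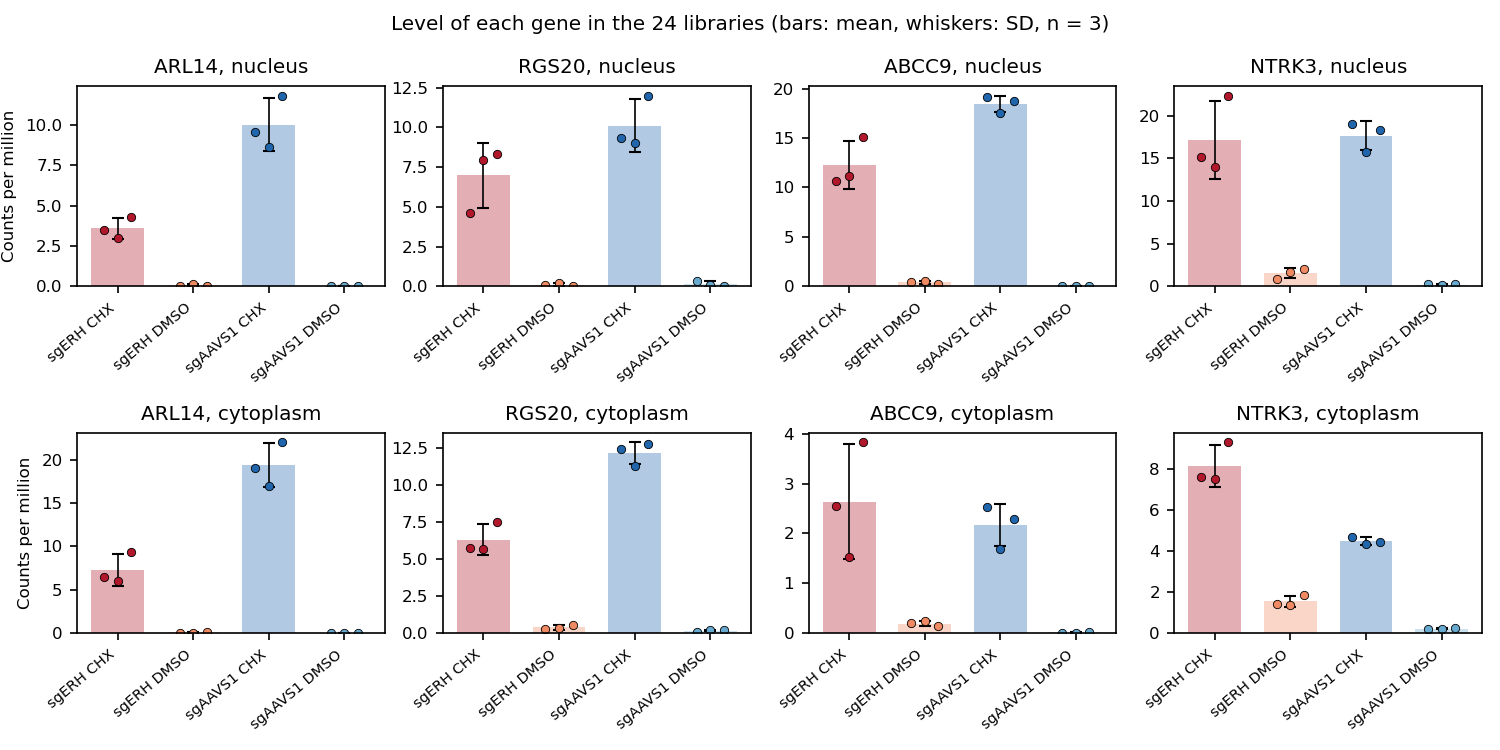
Levels of the 4 genes in CPM in each library (points), with the mean (bar) and SD (whisker) of the 3 libraries of each group, nucleus above and cytoplasm below, on linear axes that differ between panels. DMSO libraries lie near 0 except for NTRK3 in sgERH cells, at 0.909 to 2.02 CPM in the nucleus and 1.36 to 1.86 CPM in the cytoplasm.

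In sgAAVS1 cells, on which the genes were chosen, ARL14 had 1163, 862 and 1640 cytoplasmic counts with CHX and 0 in all 3 libraries with DMSO, so that it was at least 1250-fold higher with CHX against a floor of 3 counts over the DMSO group. Nuclear ARL14 had 277, 231 and 333 counts with CHX, against 1, 0 and 0 with DMSO. RGS20 had 754, 572 and 945 cytoplasmic counts with CHX, against 5, 12 and 10 with DMSO. In the nucleus it had 271, 240 and 338 with CHX, against 11, 2 and 0. ABCC9 had 554, 468 and 528 nuclear counts with CHX, against 0, 2 and 0 with DMSO, a ratio of 836 with a 95% counting interval of 231 to 6910. Its cytoplasmic counts were 154, 86 and 170 with CHX, against 0, 0 and 1. NTRK3 had 551, 418 and 515 nuclear counts with CHX, against 7, 4 and 7. Its cytoplasmic counts were 285, 219 and 330 with CHX, against 13, 13 and 12 with DMSO. The counting interval is an exact binomial one and, like the floor, covers counting error only.

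Other genes showed this pattern in the control cells. Of 49354 genes under 0.5 CPM in each of the 3 cytoplasmic sgAAVS1 DMSO libraries, 161 averaged at least 1 CPM with CHX, 64 of them protein coding. Ordered by that CHX level, ARL14 was the first, RGS20 the second, NTRK3 was at place 11 and ABCC9 at place 40. In the nucleus 281 of 47422 genes did so, with ABCC9 at place 2, NTRK3 at 3, RGS20 at 12 and ARL14 at 13. These limits were set after the values had been seen.

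Between the guides, the 4 genes differed in 2 ways, given here as a description because the sgAAVS1 libraries chose them. With CHX, ARL14 averaged 7.24 ± 1.82 CPM in the cytoplasm of sgERH cells and 19.4 ± 2.5 CPM in sgAAVS1 cells, a log2 difference of -1.43 ± 0.18 (SE), and the nuclear difference was -1.48 ± 0.30. RGS20 was lower in sgERH cells with CHX by a log2 difference of -0.95 ± 0.17 in the cytoplasm and -0.54 ± 0.35 in the nucleus. Every sgERH library with CHX was below every sgAAVS1 library with CHX for both genes in both fractions. The genes were chosen for many reads in sgAAVS1 cells with CHX, which by itself favours lower values in sgERH cells. The SE does not allow for this choice. ABCC9 with CHX differed by 0.28 ± 0.31 in the cytoplasm, where the libraries overlapped, and by -0.59 ± 0.21 in the nucleus, where they did not. NTRK3 with CHX was higher in the sgERH cytoplasm by 0.86 ± 0.14, at 8.15 ± 1.02 CPM in sgERH and 4.48 ± 0.18 CPM in sgAAVS1 cells, and differed by -0.05 ± 0.21 in the nucleus.

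With DMSO, NTRK3 and ABCC9 were higher in sgERH cells. NTRK3 summed to 246 cytoplasmic and 187 nuclear counts in the 3 sgERH DMSO libraries, against 38 and 18 in the sgAAVS1 DMSO libraries, with log2 differences of 2.94 ± 0.21 and 2.93 ± 0.38 (SE). ABCC9 summed to 29 cytoplasmic and 48 nuclear counts in sgERH cells with DMSO, against 1 and 2 in sgAAVS1 cells, with ratios of 34.8 (95% counting interval 5.78 to 1420) and 18.2 (4.76 to 154). Every sgERH library lay above every sgAAVS1 library for both genes. The genes were chosen for almost no reads in sgAAVS1 cells with DMSO, and this choice by itself favours higher values in sgERH cells. The SE and the counting intervals do not allow for it. Whether the guides differ with DMSO beyond the effect of the choice was not tested. RGS20 summed to 12 nuclear counts in sgERH DMSO and 13 in sgAAVS1 DMSO libraries, and to 56 and 27 in the cytoplasm. ARL14 had 8 cytoplasmic counts in sgERH DMSO libraries, 6 of them in replicate 3, and 0 in sgAAVS1 DMSO libraries.

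The 4 genes were also compared between the fractions. ABCC9 was higher in the nucleus than in the cytoplasm of sgERH cells with CHX, at 12.02 ± 2.11 CPM in the nucleus and 2.96 ± 1.30 CPM in the cytoplasm (SD, n = 3 each, scaled over all CHX libraries), a log2 difference of 2.03 ± 0.24 (edgeR adjusted p = 1.03e-06). NTRK3 was at 16.8 ± 4.0 CPM in the nucleus and 9.14 ± 1.12 CPM in the cytoplasm, a log2 difference of 0.88 ± 0.15 (adjusted p = 5.85e-05), which stayed under the fold threshold. RGS20 did not differ detectably, with 6.86 ± 2.02 CPM in the nucleus and 7.05 ± 1.16 CPM in the cytoplasm (log2 difference -0.04 ± 0.19, adjusted p = 0.863). ARL14 was lower in the nucleus, at 3.51 ± 0.54 CPM, against 8.12 ± 2.03 CPM in the cytoplasm (log2 difference -1.21 ± 0.18, adjusted p = 1.58e-05). Of the 4 genes, ARL14 was the only one called toward the cytoplasm and ABCC9 the only one called toward the nucleus. These shares are near those of all 17773 genes tested, of which 27.7% were called higher and 22.4% lower in the nucleus (50.1% in either direction). NTRK3 depended on the processing: with DESeq2 its value was 1.02 (adjusted p = 2.15e-09) and passed the fold threshold, and with length offsets it was 0.33 (adjusted p = 0.247). In sgAAVS1 cells with CHX, as a description, the log2 difference was 2.80 ± 0.25 for ABCC9, 1.70 ± 0.16 for NTRK3, -0.54 ± 0.19 for RGS20 and -1.24 ± 0.17 for ARL14. CPM is relative to the fraction's own RNA, and the amount of RNA per fraction was not measured.

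Per transcript length, the deposited TPM values put RGS20 and ARL14 above the others in the cytoplasm. In sgERH cells with CHX the cytoplasmic TPM was 11.6 ± 2.2 for RGS20, 10.6 ± 2.8 for ARL14, 6.46 ± 2.13 for NTRK3 and 0.979 ± 0.424 for ABCC9 (SD, n = 3). RGS20 and ARL14 overlapped between libraries, ARL14 and NTRK3 did so as well, and ABCC9 lay below all others. In the nucleus the TPM was 15.2 ± 6.5 for RGS20, 13.3 ± 3.5 for NTRK3, 7.64 ± 1.59 for ARL14 and 6.53 ± 1.17 for ABCC9, and neighbours in this order overlapped except NTRK3 and ARL14, whose nearest libraries were at 9.41 and 9.33. TPM of NTRK3 and RGS20 depends on which transcript the reads were assigned to: in 1 sgAAVS1 DMSO nuclear library NTRK3 was listed at 2.72 TPM on 7 counts.

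Splicing was read from the intron tables, which count reads spliced exactly across each annotated intron. ARL14 has no intron. In the other genes nearly all spliced reads counted along the transcript used for numbering lay in its last introns. Introns outside that transcript were left out of these sums. An intron counted as used with at least 10 spliced reads over the 12 CHX libraries, a limit set after the values had been seen. RGS20-202, the canonical RGS20 transcript, has 6 exons and 5 introns. Over the 12 CHX libraries, its introns 4 and 5 carried 3265 spliced reads and introns 1 to 3 carried 0. Intron 4 (chromosome 8, 53946749 to 53954075) had 119 nuclear and 366 cytoplasmic spliced reads in sgERH cells with CHX, and 104 and 724 in sgAAVS1 cells with CHX. Intron 5 (53954311 to 53958269) had 284 and 438 in sgERH cells, and 299 and 931 in sgAAVS1 cells. The acceptor at the end of intron 3, at 53946664, was used all the same, with 142 nuclear and 374 cytoplasmic spliced reads in sgERH cells and 128 and 769 in sgAAVS1 cells. None of these reads came from an annotated donor in the tables.

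NTRK3 was spliced in the middle of the gene. Numbering followed NTRK3-201, a transcript with 16 exons that ends before the exons of the kinase domain. The canonical transcript is NTRK3-217, with 20 exons. Along NTRK3-201, introns 14 and 15 carried 521 spliced reads over the 12 CHX libraries and introns 1 to 13 carried 0. Introns that NTRK3-201 lacks, among them those between the kinase exons, are not in this sum. Intron 15 (chromosome 15, 87979464 to 87981225) had 103 nuclear and 182 cytoplasmic spliced reads in sgERH cells with CHX, and 49 and 109 in sgAAVS1 cells. Intron 14 (87981361 to 88032856) had 11 and 35 in sgERH cells, and 1 and 31 in sgAAVS1 cells. The same junctions were seen in sgERH cells with DMSO, with 47 cytoplasmic and 7 nuclear reads across intron 15. The intron 14 donor also had reads joined to other acceptors: 120 reads in the cytoplasm of sgERH cells with CHX used it, against 35 across intron 14 itself.

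ABCC9-201, the canonical transcript, has 40 exons and 39 introns, of which 38 were in the tables. Each of introns 24 to 39 carried at least 10 spliced reads over the 12 CHX libraries and together they carried 2768. Introns 1 to 23 carried 27, and 13 of the 22 listed carried 0. Intron 24 (chromosome 12, 21848247 to 21852096) had 36 nuclear and 28 cytoplasmic spliced reads in sgERH cells with CHX, and 32 and 40 in sgAAVS1 cells, whereas intron 23 (21852223 to 21852367) had 0 and 3 in sgERH cells, and 0 and 4 in sgAAVS1 cells. This step in spliced reads between neighbouring introns was present in both guides and fractions, as the plot of spliced reads by intron shows. Reads did cover intron 23 in nuclei with CHX, with 0 spliced reads. The depth over it was 7.22, 4.0 and 5.73 in sgERH and 2.11, 0.327 and 6.8 in sgAAVS1 libraries. Where the RNA begins was not tested.

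The splice sites on either side of the step are shown to make its position explicit. Each is 30 bases of GRCh38 on the minus strand, read 5′ to 3′, with the intron's terminal dinucleotide in capitals. The donors begin with 10 exon bases and the acceptors end with 10. The ABCC9 donor of intron 24 lies at chr12:21852077-21852106 and the acceptor of intron 23, which had few reads, at chr12:21852213-21852242. The NTRK3 donor of intron 14 lies at chr15:88032837-88032866 and the acceptor of intron 13, with 0 reads, at chr15:88033036-88033065.
ABCC9 intron 24 donor: attagaaaagGTaagtgctcatagttcaga
ABCC9 intron 23 acceptor: ggaatatccgctttccttAGatcatagcca
NTRK3 intron 14 donor: ccggacacgtGTaagtactgggatggaatg
NTRK3 intron 13 acceptor: gtctctcttggtgtgtgcAGgtcccgtggc
All 4 windows hold the GT or AG of a standard intron, on both sides of the step. The intron 23 acceptor of ABCC9 had 7 spliced reads over the 12 CHX libraries, against 136 for the intron 24 donor, and the NTRK3 acceptor had 0, against 78 across intron 14.

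**Figure D2:**
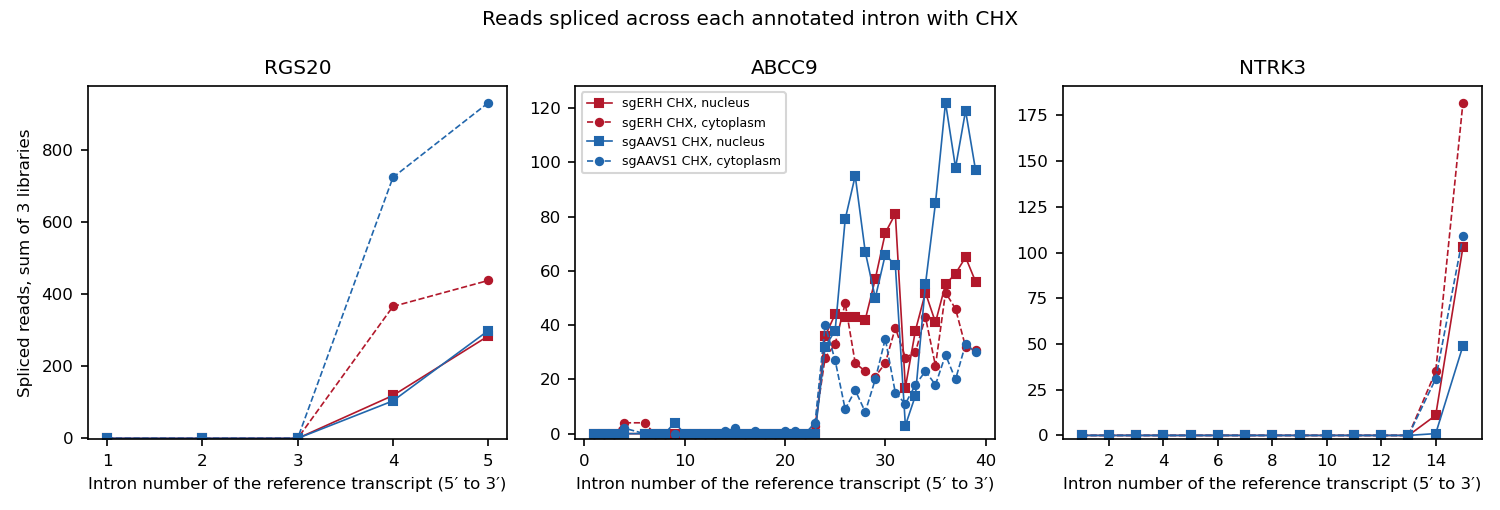
Reads spliced exactly across each annotated intron, summed over the 3 libraries of each CHX group, against the intron's number in RGS20-202, ABCC9-201 and NTRK3-201. Introns outside these transcripts are not shown. Counts are at or near 0 up to intron 3, intron 23 and intron 13, and rise after that in all 4 groups, except NTRK3 intron 14 in sgAAVS1 nuclei with 1 read.

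The transcript that salmon assigned the reads to has to be read against those junctions. For RGS20 the cytoplasmic counts in sgERH cells with CHX went to RGS20-205 (66.9% ± 4.3) and RGS20-204 (33.1% ± 4.3; SD, n = 3), and in sgAAVS1 cells to the same pair with 65.6% ± 2.0 and 34.4% ± 2.0. RGS20-205 is annotated as an NMD substrate and starts at the 5′ end of the gene, where no spliced read was found, whereas RGS20-204 starts at 53945325 and has no defined coding sequence. In the nucleus 78.3% ± 15.1 of RGS20 counts in sgERH cells and 72.7% ± 23.5 in sgAAVS1 cells went to RGS20-209, another annotated NMD substrate. For NTRK3, 90.1% ± 1.5 of the cytoplasmic counts in sgERH cells with CHX went to NTRK3-201. In sgAAVS1 cells with CHX the NTRK3-201 share ranged from 13.3% to 97.7% between the 3 libraries, with most of the rest assigned to NTRK3-219, and in sgERH cells with DMSO it was 0 and NTRK3-219 held 83.5% ± 3.1. Both transcripts span the gene from its 5′ end, where introns 1 to 13 had 0 spliced reads, and end close to each other. Their shares moved between replicates, and no change of isoform is read from them.

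ABCC9 counts fell mainly on transcripts that begin inside the gene. In the cytoplasm of sgERH cells with CHX, ABCC9-209, which begins at 21857620 and has no defined coding sequence, held 44.5% ± 18.9, and in sgAAVS1 cells it held 32.4% to 72.5%. In the nucleus ABCC9-216, annotated as a retained-intron transcript from 21829091 to 21799318, held 39.6% ± 12.9 in sgERH cells and 42.6% ± 1.0 in sgAAVS1 cells. The full-length ABCC9-201 was given 24.8% to 34.3% of nuclear counts in sgERH cells and 29.7% to 36.3% in sgAAVS1 cells, although introns 1 to 23 carried 0 spliced reads in the sgERH and 4 in the sgAAVS1 nuclear libraries. As shares of TPM, ABCC9-201 held 13.7% in sgERH and 14.4% in sgAAVS1 nuclei, and ABCC9-216 held 57.2% and 62.8%.

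Retained introns were measured as the IR ratio, the depth over an intron divided by that depth plus the spliced reads at its busier end, which is 0 for a fully spliced and 1 for a fully retained intron. In nuclei with CHX, introns 32 and 33 of ABCC9 and intron 15 of NTRK3 were mostly unspliced. ABCC9 intron 33 (21815894 to 21817186) had IR ratios of 0.526, 0.656 and 0.657 in sgERH nuclei, against 0.812, 0.819 and 0.779 in sgAAVS1 nuclei. NTRK3 intron 15 had 0.598, 0.468 and 0.676 in sgERH nuclei, against 0.843, 0.693 and 0.726 in sgAAVS1 nuclei. RGS20 intron 5 had 0.0873, 0.0632 and 0.0849, against 0.163, 0.203 and 0.134. RGS20 intron 4 had 0.309, 0.298 and 0.361, against 0.406, 0.415 and 0.372. The libraries of these 4 introns did not overlap between guides. How often other nuclear introns separated in this way was not tested, and the median nuclear intron was also lower in sgERH (log2 difference -0.949). Of 15 introns of the 3 spliced genes tested in the nucleus, 13 were lower in sgERH. This was the direction of the median nuclear intron. The share of all nuclear introns that were lower was not counted, so that 13 is not read as a trait of these genes. ABCC9 intron 39 (21801182 to 21805997) went the other way. Its mean IR ratio was 0.32 in sgERH and 0.231 in sgAAVS1 nuclei, and its libraries overlapped. In the cytoplasm the mean IR ratio of NTRK3 intron 15 was 0.0252 in sgERH and 0.0156 in sgAAVS1 cells, that of RGS20 intron 4 was 0.0287 and 0.0185, and that of RGS20 intron 5 was 0.00365 and 0.00571.

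The test of retention between guides called none of these introns. Of 15 introns of RGS20, ABCC9 and NTRK3 deep enough to test in the nucleus, 0 were called by the edgeR interaction of guide with read type, and 5 had an unadjusted p under 0.05, all lower in sgERH, as did 45422 of all 115806 nuclear introns tested, a like share. RGS20 intron 5 had a log2 difference of -1.20 ± 0.41 (adjusted p = 0.0511), NTRK3 intron 15 of -1.12 ± 0.46 (adjusted p = 0.0901), NTRK3 intron 14 of -3.65 ± 1.31 (adjusted p = 0.0609) and ABCC9 intron 32 of -2.85 ± 1.22 (adjusted p = 0.103). The fifth, an NTRK3 intron from 87940754 to 88032856 that shares the donor of intron 14, had -3.84 ± 1.58 (adjusted p = 0.0922). No other tool was run on introns. The median of the 15 was -1.07, beside -0.95 over all 115806 nuclear introns tested, of which 17.4% were called lower and 0.693% higher in sgERH. The number of nuclear introns called in either direction depended on the control libraries, at 20999 with all libraries and 7496, 10208 and 8327 without sgAAVS1 CHX nucleus replicate 1, 2 or 3. Several of the 15 share a splice site and are not independent. In the cytoplasm 0 of 3 were called and 0 had an unadjusted p under 0.05, where 0.776% of 41218 introns were called higher and 0.374% lower. Leaving out sgERH CHX nucleus replicate 3 brought NTRK3 intron 14 past the threshold (-4.44, adjusted p = 0.0466), and leaving out replicate 2 did so for ABCC9 intron 32 (-3.38, adjusted p = 0.037).

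**Figure D3:**
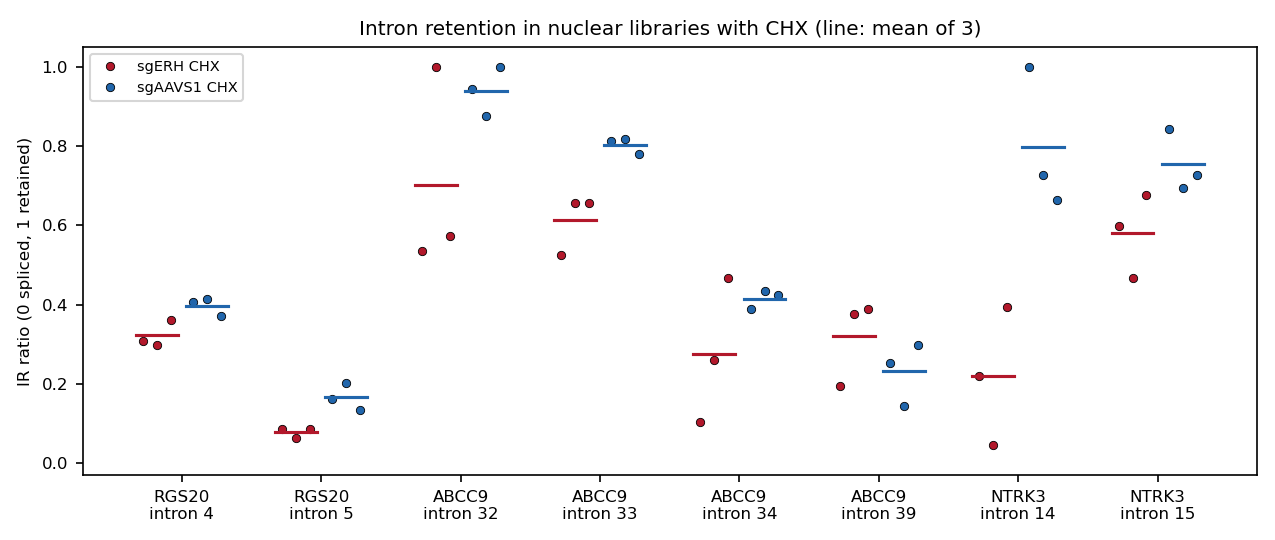
IR ratio (0 spliced, 1 retained) of 8 introns in each nuclear library with CHX, sgERH left of sgAAVS1 for each intron, with a line at the mean of 3. The ABCC9 introns are those of ABCC9-201 with a mean of at least 0.2 in sgAAVS1 nuclei that were tested. RGS20 introns 4 and 5, ABCC9 intron 33 and NTRK3 introns 14 and 15 separate the guides without overlap, and none of the 8 was called. ABCC9 introns 32, 34 and 39 overlap between guides. How often other nuclear introns separate without overlap was not tested.

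Each of the 4 genes' families holds a gene selected for rising with CHX, so that 1 call higher per list was built in. In the cytoplasm that gene was the only one called higher in each list, beside 7.15% of all genes. In the nucleus this held for all but the ARF list, beside 8.52% of all genes. Of 24 ARF and ARF-like genes tested in the cytoplasm of sgERH cells, ARL14 alone was called higher with CHX and 0 were lower, with a median log2 fold change of -0.15, beside -0.01 over all genes. In the nucleus 3 of 23 were called higher, ARL14 among them. Of 16 RGS and Gi-class genes, RGS20 alone was called higher in each fraction. RGS16, another inhibitor of Gi and Gq signalling, fell by 2.37 ± 0.16 on the log2 scale in the cytoplasm (adjusted p = 5.5e-09), to 2.35 ± 0.28 CPM with CHX, against 12.1 ± 0.6 CPM with DMSO, and by 1.70 ± 0.23 in the nucleus (adjusted p = 6.88e-06). GNAZ, which encodes Gz, was at 1.39 ± 0.35 CPM in sgERH nuclei with CHX and 3.16 ± 0.76 CPM with DMSO. Its fitted change was -1.19 ± 0.33 on the log2 scale (adjusted p = 0.00646), which missed the fold threshold without sgERH DMSO nucleus replicate 2 (-0.99) or sgERH CHX nucleus replicate 2 (-0.998).

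Of the ABCC transporters and potassium channel subunits, ABCC9 was the only one of 9 called higher in the cytoplasm and of 11 in the nucleus, with list medians of -0.04 and -0.55. KCNJ8, the pore subunit that pairs with SUR2 and lies next to ABCC9, did not pass the filter on low counts in either fraction. Of the neurotrophin ligands, receptors and adaptors, NTRK3 was the only one of 16 called higher in the cytoplasm and of 18 in the nucleus. In the nucleus 2 adaptor genes were called lower: SH2B2 at -1.42 ± 0.23 (adjusted p = 6.35e-05) and GAB1 at -1.01 ± 0.15 (adjusted p = 2.56e-05), which fell short of the fold threshold with DESeq2 (-0.97), with RLE scaling (-0.97), with only the 6 libraries compared, with length offsets (-0.41) and without any one of 4 libraries (-0.89 to -0.99).

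Of 45 immediate early genes tested, 24 were called higher in the cytoplasm (53.3%) with a median of 1.08, and 21 in the nucleus (46.7%) with a median of 0.85, beside 7.15% and 8.52% of all genes, and 0 were called lower. EGR2, a zinc-finger transcription factor, was at 39.1 ± 2.8 CPM with CHX and 2.14 ± 0.27 CPM with DMSO in the cytoplasm of sgERH cells (log2 fold change 4.19 ± 0.11, adjusted p = 5.53e-14), and KLF10, a TGF-beta-inducible repressor, rose by 3.96 ± 0.05 (adjusted p = 1.29e-17). Of 21 genes listed for transcripts known as NMD substrates, 2 were called higher in the cytoplasm (9.52%). These were GADD45A (2.09 ± 0.07, adjusted p = 3.13e-12) and GADD45B (2.62 ± 0.06, adjusted p = 3.38e-14). The list median was 0.30 in the cytoplasm, with 15 of 21 above 0, and -0.07 in the nucleus, with 8 above 0. Over all genes it was -0.01 and 0.005. A gene sum does not separate an NMD substrate from other transcripts of its gene. The snoRNA host genes SNHG1 and SNHG12 were at 0.82 ± 0.05 and 0.93 ± 0.08 in the cytoplasm, under the fold threshold. They were lower in the nucleus, at -1.89 ± 0.07 (adjusted p = 3.19e-12) and -2.53 ± 0.08 (adjusted p = 2.05e-13). The third called lower there was GAS5, another snoRNA host gene, at -1.88 ± 0.08 (adjusted p = 1.16e-11), beside 6.29% of all genes. In the nucleus 2 were called higher too, GADD45B at 1.55 ± 0.09 (adjusted p = 4.48e-10) and GADD45A at 1.28 ± 0.11 (adjusted p = 3.15e-08). GADD45A and GADD45B encode proteins of the growth arrest and DNA damage response.

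**Figure D4:**
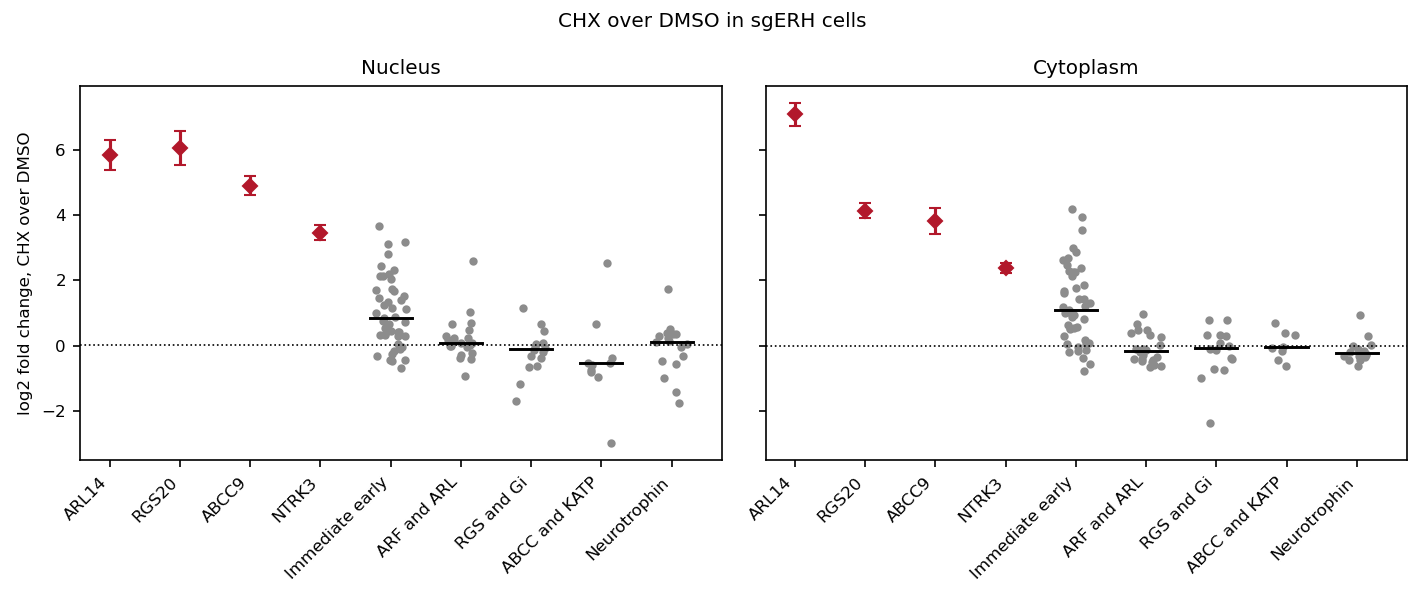
log2 fold change of CHX over DMSO in sgERH cells, nucleus left and cytoplasm right, for the 4 genes (diamonds, whiskers 1 SE) and for the other members of 5 gene lists (grey points), with a line at each list's median, the 4 genes included, and a dotted line at the median of all genes. The immediate early list has medians of 0.85 and 1.08, and the other lists lie at -0.55 to 0.12.

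Of genes next to the 4, 2 of 11 tested were called in the cytoplasm and 2 of 12 in the nucleus, beside 9.03% and 14.8% of all genes. Within 200 kb of ARL14, the importin gene KPNA4 was at 301 ± 14 CPM with CHX and 275 ± 15 CPM with DMSO in the sgERH cytoplasm (adjusted p = 0.0744), and the phosphatase gene PPM1L was at 5.28 ± 0.48 and 6.04 ± 0.73 CPM (adjusted p = 0.206). The keratin pseudogene KRT8P12 was called in the nucleus, at 79.6 ± 8.1 CPM with CHX and 13.9 ± 2.2 CPM with DMSO (log2 fold change 2.52 ± 0.11, adjusted p = 1.26e-11). KRT8, whose sequence it resembles, rose there by 1.52 ± 0.08 (adjusted p = 9.89e-11), and reads of near-identical copies may be divided between them. PPM1L-DT, a non-coding transcript divergent to PPM1L, was called in the cytoplasm (1.62 ± 0.27, adjusted p = 8.66e-05) and in the nucleus (1.09 ± 0.38, adjusted p = 0.0245), where it lost the call without any one of 3 libraries (values 0.84 to 1.12). Next to ABCC9, CMAS, which activates sialic acid, rose in the sgERH cytoplasm to 42.0 ± 3.9 CPM with CHX, against 17.8 ± 0.2 CPM with DMSO (log2 fold change 1.24 ± 0.07, adjusted p = 7.73e-10). In the sgAAVS1 cytoplasm CMAS hardly differed, at 64.7 CPM with CHX and 63 CPM with DMSO. LDHB was at -0.32 ± 0.05 in the sgERH cytoplasm, under the fold threshold. No neighbour of RGS20 was called, and none within 200 kb of NTRK3 passed the filter in either fraction. NTRK3-AS1, which overlaps NTRK3 on the other strand, was among those that did not pass. The strand setting of the counts is not given in the sources used here, so that reads of overlapping genes on opposite strands may not be told apart.

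Correlations between the genes were computed across the 24 libraries, which include those that chose them, so that high values were built in. The Pearson correlation of log2(CPM + 0.5) was 0.979 between ARL14 and RGS20 and 0.947 between ABCC9 and NTRK3, and 0.783 to 0.877 for the other pairs. Among 15360 genes that passed the filter in both fractions, the genes most like ARL14 were DNMBP (0.986), HRH1 (0.983) and THAP9 (0.983). Those most like RGS20 were CCN2 (0.989), THAP9 (0.987) and LIG4 (0.983). ABCC9 was most like ENSG00000267649 (0.986), KIAA0586 (0.982) and DYRK1A (0.977), and NTRK3 was most like LINC00702 (0.986), POLR3A (0.985) and ZNF45 (0.977). The libraries of one treatment and fraction share their condition, so that these values describe the 8 groups more than 24 independent points.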

How the data were processed

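PolyA-selected RNA-seq of 24 libraries was analysed. The authors ran fastp, STAR and salmon against GRCh38 with Ensembl annotation and deposited each transcript's estimated count, TPM and length, and, from IRFinder, intron depth (a coverage signal), counts of spliced reads and the IR ratio (a fraction) for 233113 introns per table. The deposited lengths were used only as offsets. GEO's submitter notes name a longer list of tools, of which STAR and fastp 0.23.4 bear on these files.

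Transcript counts were summed per gene and rounded; 62700 of 62754 gene IDs matched the GENCODE annotation used for names and positions. edgeR 4.0.16 (R 4.3.3) quasi-likelihood tests with TMM scaling used all 12 libraries of a fraction, or all 12 CHX libraries, 1 coefficient per group, a minimum count of 10, and Benjamini-Hochberg adjustment over all genes tested. A call needed an adjusted p no larger than 0.05 and a log2 change of 1 or more in size. Introns were tested by the interaction of guide and read type where the mean of depth plus spliced reads was at least 10 and a group's mean depth at least 1, with a mean IR ratio of at least 0.05 for a call. TPM was used to compare levels between genes and for an alternative set of transcript shares. The gene and intron tests were also run on simulated counts with known changes. The ratios, transcript shares and sums of spliced reads were not checked in this way. Alternatives were DESeq2 1.42.0, RLE scaling, no filter, length offsets, fewer libraries, a replicate block and leaving out each library.

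The genes and lists were chosen with earlier results of these data known. Named genes were the 4 genes, ERH and GADD45A, up to 2 called genes per list and direction with the largest change, genes within 200 kb, the 3 most correlated genes per member, and introns and transcripts above fixed minimums (10% of a gene's counts for transcripts). One gene that the rule names is not reported here. Library totals of 27849345 to 79450331 counts set the depth; counts of a few reads, as in DMSO, have wide counting error.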

Additional observations from a re-analysis of the deposited data

How the results depend on the processing

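The 4 genes stayed higher with CHX than with DMSO in sgERH cells under all 12 alternatives in each fraction, with log2 values of 6.61 to 8.43 (ARL14), 3.82 to 4.56 (RGS20), 3.48 to 5.00 (ABCC9) and 2.30 to 2.79 (NTRK3) in the cytoplasm and 5.38 to 6.91, 5.72 to 6.96, 4.63 to 5.20 and 2.31 to 3.72 in the nucleus. Deviations of same-numbered libraries had correlations of -0.0125 to 0.0932, too weak to settle whether the numbers pair them. The study separated nuclei and cytoplasm from one lysate, so that same-numbered fractions may share a culture. Between fractions, replicates 2 and 3 gave 0.0794 and 0.0932 for the same number and -0.0803 and -0.0867 for crossed numbers. The main tests did not pair libraries. A replicate block gave 1446 called genes against 1456 in the cytoplasm, 2531 against 2567 in the nucleus and 8772 against 8909 between fractions, and 336 against 474 cytoplasmic and 20937 against 20999 nuclear introns. It changed no call of the 4 genes. Without a minimum IR ratio the cytoplasmic introns called were 1076. Leaving out 1 library gave 202 to 366 cytoplasmic and 7496 to 20273 nuclear introns (7496, 10208 and 8327 without sgAAVS1 CHX nucleus replicate 1, 2 or 3; in the cytoplasm 202, 208 and 208 without sgAAVS1 CHX replicate 1, 2 or 3, and 252 and 270 without sgERH CHX replicate 1 or 3). The cause was not tested. For genes the ranges were 1305 to 1493 in the cytoplasm, 2379 to 2685 in the nucleus and 8598 to 9298 between fractions. As shares of TPM, RGS20-205 held 42.3% of sgERH and 40.8% of sgAAVS1 cytoplasmic RGS20, ABCC9-201 held 9.03% of sgERH and 8.37% of sgAAVS1 cytoplasmic ABCC9, and NTRK3-201 held 41.2% of sgERH cytoplasmic NTRK3. Depth limits every DMSO value of ARL14 and every per-intron value with fewer than 10 spliced reads.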
